A study of Mus musculus with 32 samples.

Results

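Omomyc, an inhibitor of MYC, was given to cultured astrocytes of genotype TDP-43_Q331K. The genotype names TDP-43, a protein that binds RNA, with a mutation found in amyotrophic lateral sclerosis. The cultures supplied 6 of the 32 samples of the series, taken by their labels alone: 3 libraries from cells given 40 µM Omomyc for 48 hours and 3 from cells given vehicle. Both groups carried the transgene, so none of the values below separates the effect of Omomyc in mutant cells from its effect in cells without the mutation. The cells had been replated after 14 days of culture, and Omomyc was added on the following day. The labels used here do not name the vehicle, the promoter of the transgene or the age of the donor animals, and do not say whether each library came from a separate animal or culture. The p-values therefore measure the spread between these libraries. In the fit that pairs libraries by replicate number, used for most results below, they measure the spread of the differences within pairs. That spread may be technical.

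MYC is a transcription factor that pairs with MAX, binds the E-box CACGTG in promoters, and raises genes of ribosome assembly, nucleotide synthesis and cell growth in dividing cells. Omomyc is a miniprotein derived from the dimerization domain of MYC. It pairs with MAX and with itself, occupies E-boxes without activating them, and so acts as a dominant-negative inhibitor of MYC. The series title names MYC-driven gliosis, and this comparison asks which transcripts change in cultured mutant astrocytes when Omomyc is added. Primary glial cultures commonly hold microglia, oligodendrocyte precursors, fibroblasts and ciliated cells of the ependymal lineage beside astrocytes.

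The libraries held between 30117025 and 37470972 counts, and 16119 of 17572 listed genes were tested. Levels are CPM, the counts scaled to library size with TMM factors. Gfap, the astrocyte intermediate filament and a defining marker, was at 3840, 3459 and 3546 CPM with Omomyc, against 4525, 4443 and 3612 CPM with vehicle. The 43 tested homeostatic astrocyte genes summed to 15280, 14260 and 13130 CPM with Omomyc and 14870, 13840 and 12160 CPM with vehicle, while Gjb6 and Slc7a10 of the same list did not pass the count filter. Other cell types were also present. Microglial genes (26 of 28 tested, without Siglech and Cd163) summed to 4976, 5837 and 10710 CPM with Omomyc and 4798, 5745 and 8863 CPM with vehicle. Fibroblast and meningeal genes (12 of 14, without Lum and Slc6a13) summed to 1419, 1269 and 3704 CPM with Omomyc and 1302, 1321 and 3831 CPM with vehicle, so replicate 3 held the most of both in each group.

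Libraries with the same replicate number were alike. Across genes, the deviations of each Omomyc library from its group mean were compared with those of each vehicle library. Within a number they correlated at r = 0.721, 0.493 and 0.77, and between numbers at -0.635 to -0.0115. Genes are not independent replicates. The deviations of a gene cancel out within a group, so positive values within numbers push those between numbers below 0 on average. The negative values are therefore no separate evidence for pairing. Xist, the RNA that coats the inactive X chromosome, was at 0.303, 530.5 and 468.2 CPM with Omomyc and 0.756, 280.8 and 467.3 CPM with vehicle. The Y-linked gene Ddx3y was at 78.6, 0 and 11.6 CPM with Omomyc and 83.1, 0 and 13.02 CPM with vehicle, so the sex-linked transcripts matched by number too. The number was therefore treated as marking pairs, although the labels do not say what it stands for. The numbers differed from each other in these transcripts, so they did not all hold the same mix of male and female cells.

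The paired and the unpaired fit gave very different counts. Without a term for the number, edgeR's quasi-likelihood test called 0 genes higher and 3 lower (0.0186% of genes tested; 486 higher and 536 lower at an unadjusted p under 0.05), namely Gm45837, Inpp5j and Vgf, each at adjusted p = 0.0497. With the number as a block, 656 genes (4.07%) were called, 360 (2.23%) higher and 296 (1.84%) lower with Omomyc, 44 (0.273%) and 48 (0.298%) of them by at least 2-fold, and the 3 genes above were among them. "Called", "rose" and "fell" refer below to the block, and changes are log2 fold changes of Omomyc over vehicle ± SE. The fit without the block gave the 142 called genes named below adjusted p between 0.0497 and 0.954. In all 142 the change had the same direction in each of the 3 pairs, a pattern that the block favours and that 23.1% of all genes tested showed as higher and 21.1% as lower. In 78 the groups did not overlap, which held for 12.8% of all genes tested (6.23% higher and 6.6% lower). At an unadjusted p under 0.05 the block gave 1858 genes (11.5%) higher and 1396 (8.66%) lower. On simulated counts the fit with the block made more false calls than its threshold states, 35 of 234 calls. The fit without it made 0 false calls of 97 but missed more of the changed genes. Of 100 genes changed 1.5-fold it recovered 22, against 99 with the block. The counts were simulated with the pair effects and the spread of the fit with the block. The higher recovery with the block follows from that setting and is no evidence for pairing in the real data.

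Vehicle replicate 2 stood apart from the other 5 libraries by transcript length. Its median deviation from the gene mean was 0.196 on the log2 scale in the quintile of shortest genes and -0.204 in that of the longest, while the other libraries stayed between -0.0636 and 0.0553. Genes called higher had a median transcript length of 4360 bases and a GC content of 48.8%, those called lower 2793.5 bases and 53.8%, and those not called 3566 bases and 49.6%. Without pair 1 the counts were 319 (1.97%) higher and 247 (1.52%) lower, without pair 2 565 (3.48%) and 520 (3.2%), without pair 3 712 (4.41%) and 418 (2.59%), and with a correction for length and GC content in each library 653 (4.05%) and 576 (3.57%). Each count of called genes in a group is given with these alternatives, and its share is to be read against the 2.23% higher and 1.84% lower of all genes. The part of transcript length in the results was not tested beyond them.

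**Figure D1:**
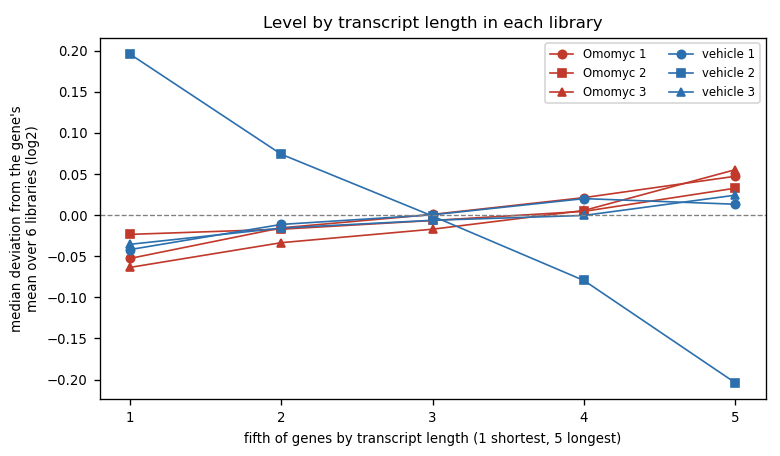
The horizontal axis gives quintiles of genes by transcript length and the vertical axis the median log2 deviation of each library from the gene's mean over 6 libraries, for genes of at least 5 CPM. Vehicle replicate 2 runs from 0.196 to -0.204, and the other 5 libraries stay between -0.0636 and 0.0553.

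Myc itself and the genes it is best known to drive did not pass the test. Myc was at 31.4, 33.7 and 36.5 CPM with Omomyc, against 32.9, 31.4 and 32.5 CPM with vehicle, a difference of 0.07 ± 0.07 (adjusted p = 0.633), and the groups overlapped. Max, its partner, was at 72.05, 74.4 and 79.4 CPM with Omomyc, against 75.01, 80.9 and 75.7 CPM with vehicle (-0.04 ± 0.06, adjusted p = 0.791). The paralogue Mycl was at 8.02, 8.202 and 7.75 CPM with Omomyc, against 8.58, 7.09 and 7.83 CPM with vehicle (0.03 ± 0.10). These 3 genes had a similar level in all 6 libraries. Mycn, the paralogue of neural progenitors, was at 1.54, 1.12 and 1.32 CPM with Omomyc, against 2.33, 2.04 and 2.51 CPM with vehicle. All 3 Omomyc libraries lay below all vehicle libraries, and it fell by 0.79 (SE 0.17, adjusted p = 0.0439). The call of Mycn was lost without pair 1 (0.06), pair 2 (0.0675) or pair 3 (0.0723) and in DESeq2 (0.193). The MAX-binding repressor genes Mnt (-0.03 ± 0.06) and Mga (0.39 ± 0.10, adjusted p = 0.0687) did not pass, though Mga was called higher without any one pair (adjusted p = 0.0162, 0.0223 and 0.00124 without pairs 1, 2 and 3). Mga was not called with the length and GC correction, and its change was 0.23 without pair 2. In the fit without the block its change was 0.37, and 0.17 with the correction.

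Of 61 MYC target genes edgeR, DESeq2 and limma-voom with the block called 0 higher and 0 lower (0 and 0 without pair 1, 0 and 2 without pair 2, 1 and 0 without pair 3, 1 and 2 with the correction), and 4 higher and 4 lower (6.56% each, against 11.5% and 8.66% of all genes) had an unadjusted p under 0.05 in edgeR. The list had a median log2 fold change of -0.05 against -0.000634 over all genes tested. It was -0.015 without pair 2 (0.0025 over all genes) and -0.004 with the correction (-0.0028). With all pairs the single changes of its genes lay between -0.27 and 0.25. Las1l, a ribosome assembly factor, was at 43.2, 43.7 and 45.2 CPM with Omomyc, against 50.3, 51.6 and 51.2 CPM with vehicle. Hk2, a hexokinase of glycolysis, was at 51.2, 51.02 and 63.7 CPM with Omomyc, against 58.1, 59.2 and 72.5 CPM with vehicle. Las1l (-0.21 ± 0.06, adjusted p = 0.0909) and Hk2 (-0.20 ± 0.06, adjusted p = 0.105) were called lower in some alternatives, at adjusted p = 0.0472 and 0.0435 without pair 2 and 0.014 and 0.0204 with the length and GC correction. Nucleolin (Ncl) was at 365, 382 and 370.2 CPM with Omomyc, against 347, 395 and 363 CPM with vehicle. It did not pass (0.02 ± 0.06), nor did nucleophosmin (Npm1, 0.01 ± 0.06), ornithine decarboxylase (Odc1, -0.09 ± 0.06) or lactate dehydrogenase A (Ldha, -0.13 ± 0.08). None of 77 ribosome biogenesis genes, 77 cytosolic ribosomal protein genes, 36 translation factor genes and 48 nuclear oxidative phosphorylation genes was called by edgeR, DESeq2 or limma-voom, nor without any pair or with the correction. At an unadjusted p under 0.05 the ribosome biogenesis list had 3 higher and 1 lower, the ribosomal protein list 0 and 1, the translation factor list 1 and 0 and the oxidative phosphorylation list 0 and 6, where 11.5% and 8.66% of all genes passed. Their medians, in this order, were -0.01, -0.08, -0.04 and -0.13. Without pair 2 the medians were -0.015, 0.037, 0.007 and -0.023, and with the correction -0.02, 0.003, -0.045 and -0.063. Of 20 aminoacyl-tRNA synthetase genes, 46 mitochondrial ribosome genes and 32 genes of nucleotide and one-carbon synthesis 0 were called by edgeR, DESeq2 or limma-voom, nor without any pair or with the correction, except that 3 of the last list were higher without pair 3. At an unadjusted p under 0.05 they had 0, 0 and 1 higher and 2, 2 and 4 lower, which for the lower genes is 10.0%, 4.35% and 12.5% against 8.66% of all genes. The 24 glycolysis and lactate genes had 0 calls in edgeR, and 0 higher and 1 lower in DESeq2 (0 and 0 without pair 1, 1 and 4 without pair 2, 0 and 1 without pair 3, 0 and 4 with the correction), and 10 (41.7%, against 8.66% of all genes) were lower at an unadjusted p under 0.05. The E-box stood in 29.0% of the promoter windows of the MYC target list (250 bases before to 50 after the start of a gene, RefSeq, GRCm38.p6, found for 11741 of the genes tested). Among windows of genes called higher 7.56% held it, among those of genes called lower 6.74%, among those of genes not called 9.44% and among all windows 7.15%.

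**Figure D2:**
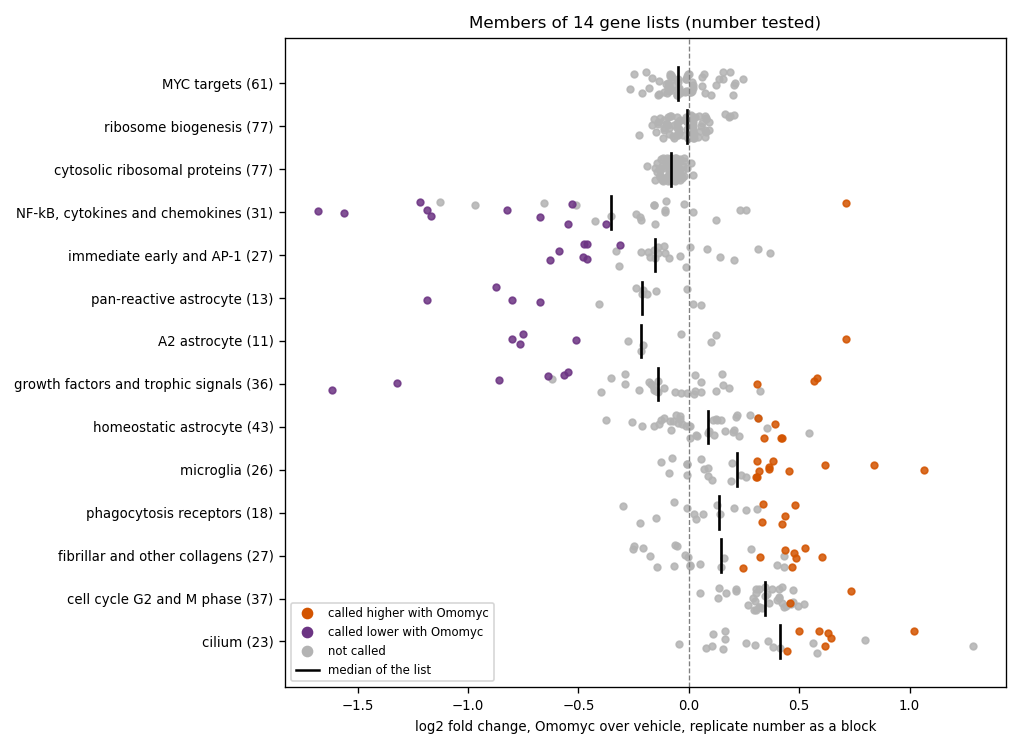
The horizontal axis is the log2 fold change of Omomyc over vehicle in the fit with the block, and each point is a tested gene of 1 of 14 lists, coloured by its call. The MYC target, ribosome biogenesis and ribosomal protein lists hold 0 called genes, while the NF-kB list holds 10 lower and 1 higher, the microglia list 11 higher and the cilium list 7 higher.

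Among called genes of at least 5 CPM that were lower in all 3 pairs, the 3 named genes that fell most were Marco, Tnfsf15 and Acod1. Marco, a scavenger receptor that takes up bacteria and particles (chromosome 1, 120474538 to 120505024), was at 2.18, 3.898 and 4.92 CPM with Omomyc, against 27.9, 30.4 and 45.9 CPM with vehicle. The highest Omomyc library was far below the lowest vehicle library, and Marco fell by 3.26 (SE 0.13, adjusted p = 5.5e-05; 0.0806 without the block). Acod1, the enzyme that makes the metabolite itaconate in stimulated macrophages, was at 1.54, 2.37 and 3.27 CPM with Omomyc, against 14.8, 14 and 21.5 CPM with vehicle (-2.82 ± 0.14, adjusted p = 0.000119). Tnfsf15, a cytokine of the tumour necrosis factor family, was at 0.908, 0.7796 and 1.03 CPM with Omomyc, against 4.08, 4.99 and 15.1 CPM with vehicle (-3.06 ± 0.28). Its Omomyc libraries were alike, and vehicle replicate 3 was the highest of its group. Clec4e, the receptor Mincle, which senses microbial glycolipids and dead cells, was at 2.24, 2.401 and 2.57 CPM with Omomyc, against 6.77, 6.12 and 8.91 CPM with vehicle (-1.59 ± 0.13). Mmp9, a matrix protease of activated myeloid cells, was at 2.39, 1.53 and 2.59 CPM with Omomyc, against 5.69, 4.24 and 9.13 CPM with vehicle (-1.53 ± 0.15). In these 5 genes the groups did not overlap. Gpr84, a receptor for medium-chain fatty acids, was at 12.3, 15.9 and 16.6 CPM with Omomyc, against 26.1, 25.9 and 33.4 CPM with vehicle (-0.93 ± 0.09). The formyl peptide receptor genes Fpr1 (-1.13 ± 0.14) and Fpr2 (-1.37 ± 0.15) fell as well. Gpr84, Fpr1 and Fpr2 were chosen after their values were seen. In bulk RNA, fewer cells of a type and less RNA per cell cannot be told apart. The summed microglial genes given above were higher with Omomyc in each pair, and their part in these results was not tested.

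**Figure D3:**
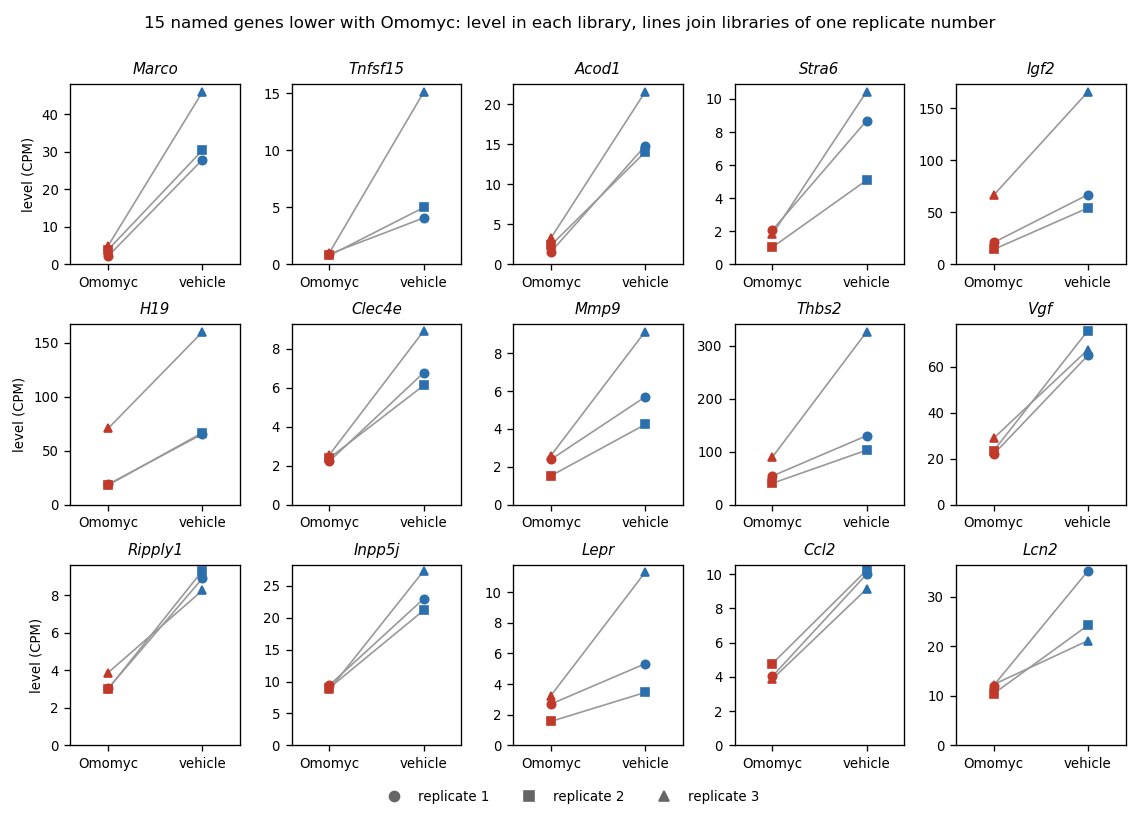
Each panel gives the CPM of a gene in the 3 Omomyc libraries (left) and the 3 vehicle libraries (right), with lines joining the libraries of 1 replicate number. Every line is higher at its vehicle end, which the choice of these 15 genes required. They run from Marco at 2.18 to 4.92 CPM against 27.9 to 45.9 CPM to Lcn2 at 10.4 to 12.3 CPM against 21.1 to 35.2 CPM.

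NF-kB is the transcription factor family that switches on cytokine and chemokine genes after stimuli such as bacterial lipopolysaccharide. Of 31 tested NF-kB, cytokine and chemokine genes 10 (32.3%, against 1.84% of all genes) fell and 1 (3.23%, against 2.23%) rose (8 and 1 without pair 1, 13 and 2 without pair 2, 12 and 1 without pair 3, 14 and 2 with the correction). Their median was -0.35.

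Among the chemokines, Ccl2, which attracts monocytes, was at 4.03, 4.77 and 3.86 CPM with Omomyc, against 9.997, 10.2 and 9.13 CPM with vehicle (-1.22 ± 0.10, adjusted p = 0.00158). Cxcl2, which attracts neutrophils, was at 0.666, 0.312 and 0.703 CPM with Omomyc, against 1.61, 1.66 and 2.1 CPM with vehicle (-1.68 ± 0.25). The related Cxcl1 was at 0.212, 0.499 and 0.622 CPM with Omomyc, against 1.51, 1.35 and 1.11 CPM with vehicle (-1.56 ± 0.34). Omomyc libraries were below all vehicle libraries in each of the 3, but Cxcl1 and Cxcl2 were scarce, and Cxcl1 lost its call without pair 1 (adjusted p = 0.077) or pair 2 (0.0813) and in limma-voom (0.0534). The interferon-induced chemokine Cxcl10 (-0.67 ± 0.09), Ccl3 (-0.82 ± 0.14) and the cytokine Il1b (-1.17 ± 0.22, adjusted p = 0.064 in DESeq2) also fell. Of the pathway itself, Nfkbia, Relb and Nfkb2 fell. Nfkbia, the inhibitor that NF-kB induces, was at 41.5, 43.5 and 49.9 CPM with Omomyc, against 67.4, 65.4 and 63.8 CPM with vehicle (-0.55 ± 0.08), with every Omomyc library below every vehicle library. The subunit genes Relb (-0.53 ± 0.09) and Nfkb2 (-0.38 ± 0.06) fell by less, and neither was called without pair 1 (0.0534 and 0.0689). Ptgs2, the prostaglandin synthase COX-2, was the 1 member that rose, at 15.2, 18.5 and 54.3 CPM with Omomyc, against 9.37, 11.9 and 31.5 CPM with vehicle (0.71 ± 0.07). It was highest in replicate 3 of both groups.

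The promoters of 3 of these lower genes are shown because they hold a match to the NF-kB consensus, in capitals, within 100 bases (RefSeq, GRCm38.p6, 5′ to 3′ on the strand of the gene). The genes and this form of the motif were chosen after values were seen.
Cxcl1, chr5:90891129-90891228, plus strand: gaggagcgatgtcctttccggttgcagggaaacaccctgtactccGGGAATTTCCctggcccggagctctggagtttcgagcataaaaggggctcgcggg
Cxcl2, chr5:90903757-90903856, plus strand: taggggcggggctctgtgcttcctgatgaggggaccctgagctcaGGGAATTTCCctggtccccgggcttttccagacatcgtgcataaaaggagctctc
Nfkbia, chr12:55492648-55492747, minus strand: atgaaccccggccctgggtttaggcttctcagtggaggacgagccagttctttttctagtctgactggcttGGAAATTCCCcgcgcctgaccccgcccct
Cxcl1 and Cxcl2 are neighbours on chromosome 5, and their matches have the same letters. On either strand the motif stood in 13.8% of the windows of genes called lower, in 10.9% of those called higher, in 10.5% of those not called and in 8.46% of all windows. A narrower form of the motif, searched first, stood in 5.32%, 2.52%, 1.61% and 1.63% of the same windows, so the difference between lower and other genes depends on the form. The consensus stood in 46.2% of the 26 windows of the NF-kB list, whose members are partly known as its targets. The AP-1 motif TGANTCA stood in 9.93% of the windows of lower genes, 11.5% of higher genes and 5.24% of genes not called. A match is a run of letters and shows no binding.

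Of 26 tested microglial genes 11 (42.3%, against 2.23% of all genes) rose, 0 fell and 15 did not pass (higher and lower, 5 and 0 without pair 1, 14 and 0 without pair 2 and with the correction, 6 and 0 without pair 3). P2ry12, the purinergic receptor by which resting microglia sense nucleotides, was at 15.6, 16 and 24.5 CPM with Omomyc, against 9.898, 8.63 and 12.7 CPM with vehicle (0.84 ± 0.09, adjusted p = 0.00364). Tmem119, a marker that infiltrating macrophages lack, was at 69.2, 90.9 and 119 CPM with Omomyc, against 47.5, 61.3 and 71.99 CPM with vehicle (0.62 ± 0.06). The lysophospholipid receptor gene Gpr34 was at 2.36, 2.46 and 6.75 CPM with Omomyc, against 1.38, 1.51 and 2.39 CPM with vehicle (1.06 ± 0.19). All 3 were higher with Omomyc in every pair. Groups did not overlap in P2ry12 and overlapped in the other 25 genes of the list. Csf1r, the receptor that microglia need to survive, was at 395, 444 and 776 CPM with Omomyc, against 329, 352 and 608 CPM with vehicle (0.32 ± 0.06). Cx3cr1, the fractalkine receptor, was at 219, 251 and 442 CPM with Omomyc, against 188, 197 and 344 CPM with vehicle (0.31 ± 0.06). Fcrls, an Fc receptor-like gene, was at 219, 269 and 474 CPM with Omomyc, against 167, 213 and 306 CPM with vehicle (0.46 ± 0.07). Others called were the lysosomal genes Ctss (0.36 ± 0.07) and Laptm5 (0.38 ± 0.06), the toll-like receptor partner Ly86 (0.36 ± 0.07) and the leukocyte phosphatase Ptprc (0.31 ± 0.06). Ctss and Ly86 were not called without pair 1 (adjusted p = 0.0541 and 0.057) or pair 3 (0.0847 and 0.125), nor Ptprc without pair 1 (0.0519). Csf1r was not called without pair 1 (adjusted p = 0.0842) or pair 3 (0.0552), nor was Cx3cr1 (0.0535 and 0.0705).

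Disease-associated microglia genes, which rise around plaques and dying neurons, had 3 (13%) lower and 0 higher of 23 (3 and 0 without pair 1, 3 and 1 without pair 2, 5 and 0 without pair 3, 4 and 1 with the correction). Lpl, the lipoprotein lipase, was at 89.3, 112 and 194 CPM with Omomyc, against 137, 156 and 309 CPM with vehicle (-0.59 ± 0.06). Lgals3, the lectin galectin-3, was at 122, 123 and 171 CPM with Omomyc, against 186, 200.0 and 217 CPM with vehicle (-0.55 ± 0.07). The glycoprotein gene Gpnmb was at 73.4, 96.99 and 303 CPM with Omomyc, against 155, 179 and 400.4 CPM with vehicle (-0.78 ± 0.11). All 3 fell in each pair, without overlap between groups in Lgals3, and Gpnmb was not called without pair 2 (adjusted p = 0.0718). Phagocytosis receptor genes had 5 (27.8%) higher and 0 lower of 18 (3 and 0 without pair 1 or pair 3, 5 and 1 without pair 2, 6 and 1 with the correction). They were the engulfment receptors Mertk (0.42 ± 0.09) and Lrp1 (0.48 ± 0.09), the integrin gene Itgb5 (0.33 ± 0.06), the adaptor Gulp1 (0.34 ± 0.06) and the lipid exporter Abca1 (0.44 ± 0.10). Mertk lost its call without pair 2 (0.059) or pair 3 (0.0891), Itgb5 without pair 1 (0.0871) or pair 3 (0.0961), Gulp1 without pair 1 (0.0727) and Abca1 with a filter at 1 CPM (0.052).

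Of 14 genes of cholesterol efflux and lipid transport 3 (21.4%) rose, 2 (14.3%) fell and 9 did not pass (higher and lower, 3 and 2 without pair 1 or pair 2 and with the correction, 3 and 3 without pair 3). Abcg1, which passes cholesterol to lipoproteins, was at 22.5, 21.9 and 32.3 CPM with Omomyc, against 11.1, 10.6 and 14.4 CPM with vehicle (1.08 ± 0.08, adjusted p = 0.000934), with every Omomyc library above every vehicle library. Mylip, a ligase that degrades the low-density lipoprotein receptor, was at 19.7, 22.5 and 40.7 CPM with Omomyc, against 13.2, 14.5 and 24.5 CPM with vehicle (0.65 ± 0.07). Abca1 was at 504, 409.9 and 437 CPM with Omomyc, against 418, 241 and 360.2 CPM with vehicle (0.44 ± 0.10), and vehicle replicate 2 was its lowest library. Lcat (-0.48 ± 0.08), which esterifies cholesterol in lipoproteins, fell, as did Lpl. Abca1, Abcg1 and Mylip are known targets of the liver X receptors, as is Lpl, which fell. The receptor gene Nr1h3 was at 8.29, 7.52 and 8.59 CPM with Omomyc, against 11.4, 10.6 and 10.1 CPM with vehicle and did not pass (-0.40 ± 0.10, adjusted p = 0.0635; 0.0193 without pair 3). Of 25 cholesterol synthesis genes 2 (8%) rose and 0 fell (0 and 0 without pair 1, 9 and 0 without pair 2, 1 and 1 without pair 3, 6 and 0 with the correction). They were Hmgcs1 (0.31 ± 0.06), an early enzyme of the pathway, and the cholesterol carrier Stard4 (0.37 ± 0.07). Neither was called without pair 1 (adjusted p = 0.117 and 0.069), nor Hmgcs1 without pair 3 (0.106).

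Reactive astrocyte genes are those that rise when astrocytes respond to injury or inflammation. Of 13 pan-reactive genes 4 (30.8%) fell and 0 rose (4 and 0 without pair 1, 5 and 0 without pair 2 or pair 3, 7 and 0 with the correction). Lcn2, the iron-binding protein lipocalin 2, was at 12.1, 10.4 and 12.3 CPM with Omomyc, against 35.2, 24.2 and 21.1 CPM with vehicle (-1.18 ± 0.13, adjusted p = 0.00416). Steap4, a metalloreductase, was at 20.1, 13.7 and 13.1 CPM with Omomyc, against 41.5, 26.5 and 19.9 CPM with vehicle (-0.87 ± 0.10). The small heat shock protein gene Hspb1 was at 20.6, 22.2 and 30.9 CPM with Omomyc, against 35.8, 46.7 and 45.1 CPM with vehicle (-0.80 ± 0.10). Groups did not overlap in Lcn2 and Hspb1, whereas Omomyc replicate 1 and vehicle replicate 3 were close in Steap4. The fourth gene was Cxcl10. Gfap did not pass (-0.21 ± 0.08, adjusted p = 0.205), nor did Vim (0.02 ± 0.08) or the protease inhibitor gene Serpina3n (-0.19 ± 0.08).

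Among 11 genes of the A2 list, described after ischaemia, 4 (36.4%) fell and 1 (9.09%) rose (4 and 1 without pair 1 or pair 3, 5 and 2 without pair 2 and with the correction). Ptx3, a pattern recognition protein of the pentraxin family, was at 32.2, 27.9 and 27.8 CPM with Omomyc, against 55.02, 53.9 and 44.7 CPM with vehicle (-0.80 ± 0.07, adjusted p = 0.00162), without overlap. Cd14, the lipopolysaccharide co-receptor, was at 32.9, 44 and 70.2 CPM with Omomyc, against 48.7, 73.6 and 137 CPM with vehicle (-0.77 ± 0.08). The cytokine gene Clcf1 was at 115, 108 and 79.8 CPM with Omomyc, against 158, 141 and 128 CPM with vehicle (-0.51 ± 0.07). Tgm1, a transglutaminase, fell as well (-0.75 ± 0.13), and Ptgs2 was the member that rose. The A1 list, described after lipopolysaccharide, had 1 higher and 1 lower of 12 (1 and 0 without pair 1, 1 and 1 without pair 2, 1 and 2 without pair 3 and with the correction). Srgn, a proteoglycan of secretory granules, rose (0.57 ± 0.09) and Ggta1, a galactosyltransferase, fell (-0.35 ± 0.08), but not without pair 1 (adjusted p = 0.155) or pair 2 (0.113). C3, the central complement component and best known gene of the list, was at 604, 464 and 464 CPM with Omomyc, against 899.9, 544 and 495 CPM with vehicle and did not pass (-0.30 ± 0.09, adjusted p = 0.117). It was called without pair 3 (0.0052) and in DESeq2 (0.0264).

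Homeostatic astrocyte genes had 5 (11.6%) higher and 0 lower of 43 (3 and 0 without pair 1, 8 and 0 without pair 2, 4 and 2 without pair 3, 9 and 2 with the correction). Slc1a2, the glutamate transporter GLT-1, was at 219.8, 209.8 and 204 CPM with Omomyc, against 176, 140.0 and 161 CPM with vehicle (0.42 ± 0.07), without overlap. Glul, glutamine synthetase, was at 1021, 1040 and 938 CPM with Omomyc, against 815, 878 and 723 CPM with vehicle (0.31 ± 0.06), also without overlap. The bicarbonate transporter gene Slc4a4 (0.39 ± 0.08), Gldc of glycine cleavage (0.34 ± 0.05) and Mertk were the others. With 2 pairs, Glul was not called without pair 1 (adjusted p = 0.163) or pair 3 (0.0971), and Gldc not without pair 1 (0.0695).

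Vgf, Inpp5j and Gm45837 were the genes that passed in both fits. Vgf, a neuropeptide precursor that growth factors induce (chromosome 5, 137026392 to 137033351), was at 22.03, 23.5 and 28.97 CPM with Omomyc, against 65.01, 75.8 and 67.5 CPM with vehicle. The groups were far apart and alike within. Vgf fell by 1.49 (SE 0.09), which passed with the block (adjusted p = 0.000512) and without it (0.0497). Inpp5j, a phosphatase of inositol lipids (chromosome 11, 3494375 to 3504821), was at 9.44, 9.01 and 8.76 CPM with Omomyc, against 22.99, 21.2 and 27.4 CPM with vehicle (-1.39 ± 0.10) and also passed both. The granin gene Scg2, another precursor of secreted peptides, was at 7.14, 8.89 and 9.92 CPM with Omomyc, against 13.3, 21.97 and 23.4 CPM with vehicle (-1.16 ± 0.10). Its relative Chgb was at 11.6, 13.4 and 11.9 CPM with Omomyc, against 14.96, 21.5 and 17.8 CPM with vehicle (-0.55 ± 0.09). Nxph3, a secreted ligand of neurexins, was at 8.87, 9.23 and 10.9 CPM with Omomyc, against 19.99, 21.6 and 18.3 CPM with vehicle (-1.05 ± 0.11). All Omomyc libraries lay below all vehicle libraries in these 3, which were chosen after their values were seen. The promoter of Scg2 is shown because it holds the cyclic AMP response element TGACGTCA, in capitals (RefSeq, GRCm38.p6, 5′ to 3′ on the strand of the gene).
Scg2, chr1:79440041-79440140, minus strand: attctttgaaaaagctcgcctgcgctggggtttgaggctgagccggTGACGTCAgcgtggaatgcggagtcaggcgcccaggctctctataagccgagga
This element stood in 2.84% of the windows of genes called lower, 1.68% of those called higher, 2.88% of those not called and 1.79% of all windows. Gm45837, the third gene called without the block, had 0, 0 and 0 counts with Omomyc, against 58, 54 and 59 with vehicle, which is at least 20.6-fold lower against a floor of 3 counts per library. Its annotated span (chromosome 7, 101410886 to 101512819) overlaps Arap1 and Pde2a on the same strand, so how reads were assigned to it is uncertain. Arap1 had 3238, 3114 and 5031 counts with Omomyc and 2954, 3020 and 4151 with vehicle.

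The immediate early genes, the first to be transcribed after a stimulus, had 7 (25.9%) lower and 0 higher of 27 (5 and 0 without pair 1, 7 and 0 without pair 2 or pair 3, 9 and 1 with the correction). Junb, a subunit of the AP-1 transcription factor, was at 71.2, 72.5 and 94.1 CPM with Omomyc, against 108, 106 and 115 CPM with vehicle (-0.47 ± 0.07). Ier3, a gene of survival after stress, was at 15.5, 16.96 and 22.4 CPM with Omomyc, against 24.4, 30.1 and 29.8 CPM with vehicle (-0.63 ± 0.09). The phosphatase gene Dusp5 was at 22.4, 22.1 and 22.3 CPM with Omomyc, against 30.98, 34.2 and 28.4 CPM with vehicle (-0.48 ± 0.08). Omomyc libraries lay below all vehicle libraries in the 3. Klf2 (-0.46 ± 0.08), Fosl2 (-0.31 ± 0.05), Atf3 (-0.46 ± 0.09) and Fosl1 (-0.59 ± 0.12), all transcription factor genes, fell as well. Fosl2 and Fosl1 were not called without pair 1 (adjusted p = 0.0868 and 0.105), nor Fosl2 without pair 3 (0.0536).

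Growth factor genes changed in both directions. Of 36 tested, 6 (16.7%) fell and 3 (8.33%) rose (7 and 2 without pair 1, 6 and 3 without pair 2, 6 and 2 without pair 3, 8 and 5 with the correction). Igf2, an insulin-like growth factor (chromosome 7, 142650766 to 142666816), was at 20.97, 14.3 and 66.4 CPM with Omomyc, against 66.9, 54.1 and 166 CPM with vehicle. Replicate 3 was the highest in both groups, so the groups overlapped, but it was lower in each of the 3 pairs, at a log2 fold change of -1.61 ± 0.11 (adjusted p = 0.000639; 0.779 without the block). H19, the imprinted non-coding RNA beside Igf2 (chromosome 7, 142575529 to 142578143), had nearly the same pattern, at 18.9, 18.1 and 70.7 CPM with Omomyc, against 65.5, 66.7 and 159.9 CPM with vehicle (-1.59 ± 0.13). Igf2 and H19 share enhancers but are transcribed from opposite parental alleles. The survival factor genes Cntf (-0.64 ± 0.11), Lif (-0.56 ± 0.11), Artn (-1.32 ± 0.22) and Nrtn (-0.86 ± 0.18) fell. Of these, Cntf was at 32.4, 30.97 and 30.2 CPM with Omomyc, against 48.1, 60.5 and 38.95 CPM with vehicle. Groups did not overlap in any of the 4. Nrtn was not called without pair 2 (adjusted p = 0.0851), nor Nrtn and Artn in DESeq2 (0.114 and 0.0587). Bmp6 (0.31 ± 0.06), a bone morphogenetic protein, Hgf (0.58 ± 0.11), hepatocyte growth factor, and Inhba (0.57 ± 0.11), a subunit of activin, rose. Bmp6 was not called without pair 1 (0.0702) or pair 3 (0.0641).

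Stra6, Lepr, Ripply1, Nkd1 and Gjb2, outside that list, fell as well. Stra6, the cell surface receptor for retinol-binding protein, was at 2.06, 1.03 and 1.81 CPM with Omomyc, against 8.68, 5.08 and 10.4 CPM with vehicle (-2.3 ± 0.14). Lepr, the leptin receptor, was at 2.69, 1.56 and 3.24 CPM with Omomyc, against 5.33, 3.45 and 11.3 CPM with vehicle (-1.36 ± 0.18). Ripply1, a transcriptional co-repressor of somite formation, was at 3.03, 2.99 and 3.86 CPM with Omomyc, against 8.88, 9.29 and 8.24 CPM with vehicle (-1.42 ± 0.13). Groups did not overlap in these 3 genes. Nkd1, an inhibitor of Wnt signalling, was at 2.57, 2.81 and 2.78 CPM with Omomyc, against 5.39, 4.86 and 6.01 CPM with vehicle (-0.99 ± 0.13), also without overlap. Gjb2, the gap junction protein connexin 26, was at 0.393, 0.655 and 1.95 CPM with Omomyc, against 0.756, 3.48 and 5.22 CPM with vehicle (-1.66 ± 0.25), highest in replicate 3 of both groups. Of 28 Notch and Wnt genes 1 (3.57%) rose and 2 (7.14%) fell (0 and 1 without pair 1, 2 and 3 without pair 2, 2 and 2 without pair 3, 0 and 4 with the correction) and these counts are too small to set apart from the 2.23% and 1.84% of all genes.

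Of 27 collagen genes 8 (29.6%) rose and 0 fell (6 and 0 without pair 1, 9 and 3 without pair 2 and with the correction, 9 and 0 without pair 3). Col6a2, of the beaded filament collagen VI, was at 32.5, 26.8 and 84.2 CPM with Omomyc, against 19.5, 20.8 and 51.8 CPM with vehicle (0.61 ± 0.08). Col14a1, which binds to collagen fibrils, was at 56.9, 50.8 and 62.6 CPM with Omomyc, against 42.3, 32.95 and 47.7 CPM with vehicle (0.48 ± 0.07). The fibrillar gene Col3a1 was at 253, 193 and 719 CPM with Omomyc, against 160.3, 153 and 546 CPM with vehicle (0.47 ± 0.07). Each was higher in every pair, and of these 3 the groups did not overlap in Col14a1. Col5a3 (0.44 ± 0.06), Col8a2 (0.49 ± 0.07), Col27a1 (0.52 ± 0.09), Col6a1 (0.32 ± 0.07) and Col18a1 (0.25 ± 0.06) rose as well. Col6a1 and Col18a1 were not called without pair 1 (adjusted p = 0.0875 and 0.281) or pair 3 (0.148 and 0.104). The main fibrillar genes Col1a1 (0.05 ± 0.07) and Col1a2 (-0.07 ± 0.07) did not pass. Summed fibroblast genes did not move one way in the 3 pairs. Of 44 genes of matrix crosslinking and remodelling 3 (6.82%) rose and 4 (9.09%) fell (0 and 3 without pair 1, 7 and 8 without pair 2, 7 and 4 without pair 3, 6 and 7 with the correction). Eln, elastin, was at 15.3, 17.96 and 36.7 CPM with Omomyc, against 26.3, 39.8 and 72.3 CPM with vehicle (-0.97 ± 0.08). Lox, the enzyme that crosslinks elastin and collagen, was at 96.05, 108 and 319 CPM with Omomyc, against 134, 159 and 547 CPM with vehicle (-0.61 ± 0.07). Eln and Lox were among those that fell. The laminin gene Lamb1 (0.34 ± 0.07) and Loxl2, a relative of Lox (0.32 ± 0.06), were among those that rose, and neither was called without pair 1 (adjusted p = 0.0985 and 0.133). Ltbp1, which holds latent TGF-beta in the matrix, fell (-0.43 ± 0.07; adjusted p = 0.0573 without pair 1), and of 23 TGF-beta and YAP target genes 1 (4.35%) rose and 3 (13%) fell (0 and 0 without pair 1, 2 and 3 without pair 2, 2 and 1 without pair 3, 5 and 5 with the correction).

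Thbs2, a thrombospondin that astrocytes secrete to promote synapses, was at 54.3, 40.6 and 89.8 CPM with Omomyc, against 130.4, 103 and 326 CPM with vehicle (-1.5 ± 0.11, adjusted p = 0.000934). Replicate 3 was the highest of each group, and the groups did not overlap. Of 29 secreted synapse-organising factors 2 (6.9%) rose and 3 (10.3%) fell (1 and 2 without pair 1 or pair 3, 1 and 4 without pair 2, 2 and 5 with the correction). Thbs2, the chondroitin sulphate proteoglycan gene Ncan (-0.48 ± 0.06) and the adhesion gene Nrcam (-0.32 ± 0.06) fell, and Mertk and the adhesion gene Ntm (0.36 ± 0.08) rose. Nrcam and Ntm were not called without pair 1 (adjusted p = 0.0819 and 0.0935) or pair 3 (0.103 and 0.122).

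Of 23 cilium genes 7 (30.4%, against 2.23% of all genes) rose, 0 fell and 16 did not pass (higher and lower, 11 and 0 without pair 1, pair 2 or pair 3 and with the correction). The groups overlapped in all 23, while 6.23% of all genes were higher without overlap. In the edgeR fit without the block the lowest adjusted p of the list was 0.779. Multiciliated cells line the brain ventricles. They multiply their centrioles under the control of Gmnc and Mcidas, and then build motile axonemes under Foxj1. Mcidas (chromosome 13, 112993845 to 113000394) was at 5.14, 2.59 and 3.702 CPM with Omomyc, against 1.74, 0.753 and 0.382 CPM with vehicle (2.04 ± 0.28, adjusted p = 0.00842), with the lowest Omomyc library above the highest vehicle library. Its neighbour Ccno, a cyclin needed for centriole multiplication (chromosome 13, 112987802 to 112990777), was at 17.3, 8.11 and 9.67 CPM with Omomyc, against 7.92, 4.08 and 3.53 CPM with vehicle (1.18 ± 0.11). On its other side Cdc20b, which acts in the release of the new centrioles (chromosome 13, 113035111 to 113091195), was at 2.57, 1.62 and 1.97 CPM with Omomyc, against 0.691, 0.314 and 0.3501 CPM with vehicle (2.2 ± 0.23). The 3 genes thus lie next to each other and were higher in all 3 pairs. Deup1, which builds the body from which centrioles bud, was at 15.8, 7.61 and 8.97 CPM with Omomyc, against 5.82, 2.82 and 2.23 CPM with vehicle (1.6 ± 0.14, adjusted p = 0.00156). Among transcription factors of the same programme, Trp73 was at 8.56, 4.68 and 5.43 CPM with Omomyc, against 3.49, 1.19 and 1.496 CPM with vehicle (1.65 ± 0.16). Myb was at 27.3, 14.1 and 15.3 CPM with Omomyc, against 13.1, 5.37 and 5.22 CPM with vehicle (1.31 ± 0.11). Groups did not overlap in these genes, and replicate 1 was the highest library of each group. Foxn4, which acts in multiciliated cells of frogs, was at 1.48, 0.593 and 0.973 CPM with Omomyc, against 0.329, 0.0941 and 0.223 CPM with vehicle (2.23 ± 0.29), again without overlap. Gmnc itself was at 47.96, 32.4 and 35.99 CPM with Omomyc, against 41.2, 19.1 and 21.6 CPM with vehicle (0.56 ± 0.11) and lost its call without pair 2 (adjusted p = 0.123). Foxj1 was at 492, 387 and 339 CPM with Omomyc, against 418, 350.1 and 255 CPM with vehicle and did not pass (0.26 ± 0.07, adjusted p = 0.0715), but was called without pair 2 (0.00883), with the correction (0.0038) and in DESeq2 (0.0192). Rfx2 (-0.04 ± 0.06) and Rfx3 (0.31 ± 0.09), other regulators of cilium genes, did not pass. Mcidas, Cdc20b, Foxn4, Gmnc, Rfx2 and Rfx3 were chosen after their values were seen.

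The cilium genes that rose were the dynein heavy chain genes Dnah5 (0.65 ± 0.10) and Dnah9 (0.62 ± 0.10), the axoneme genes Cfap54 (0.50 ± 0.07), Cfap65 (1.02 ± 0.15) and Ccdc40 (0.44 ± 0.08), the radial spoke gene Rsph4a (0.59 ± 0.11) and the tektin gene Tekt1 (0.63 ± 0.13). Wdr63, a dynein intermediate chain, was at 8.14, 4.68 and 5.51 CPM with Omomyc, against 3.98, 1.88 and 1.94 CPM with vehicle (1.26 ± 0.14). Ak7, an adenylate kinase of cilia, was at 15.8, 7.95 and 8.86 CPM with Omomyc, against 8.88, 3.77 and 3.75 CPM with vehicle (1.03 ± 0.11). Cfap65 was at 13.4, 5.36 and 6.38 CPM with Omomyc, against 8.25, 1.95 and 2.96 CPM with vehicle. Replicate 1 again was the highest of each group in these 3. The giant axoneme gene Hydin, chosen after its values were seen, was at 3.09, 1.75 and 1.89 CPM with Omomyc, against 1.68, 0.533 and 0.668 CPM with vehicle (1.27 ± 0.22). In each of these genes, the Omomyc library stood above the vehicle library of its number in all 3 pairs. Summed ependymal and choroid plexus genes (10 of 14 tested, without Tmem212, Kl, Kcne2 and Prlr) were at 667.7, 514.5 and 465.8 CPM with Omomyc and 580.4, 498.2 and 359.6 CPM with vehicle. Within that list the water channel gene Aqp1, abundant in choroid plexus, fell (-1.43 ± 0.19). The part of more ciliated cells in these results was not tested.

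**Figure D4:**
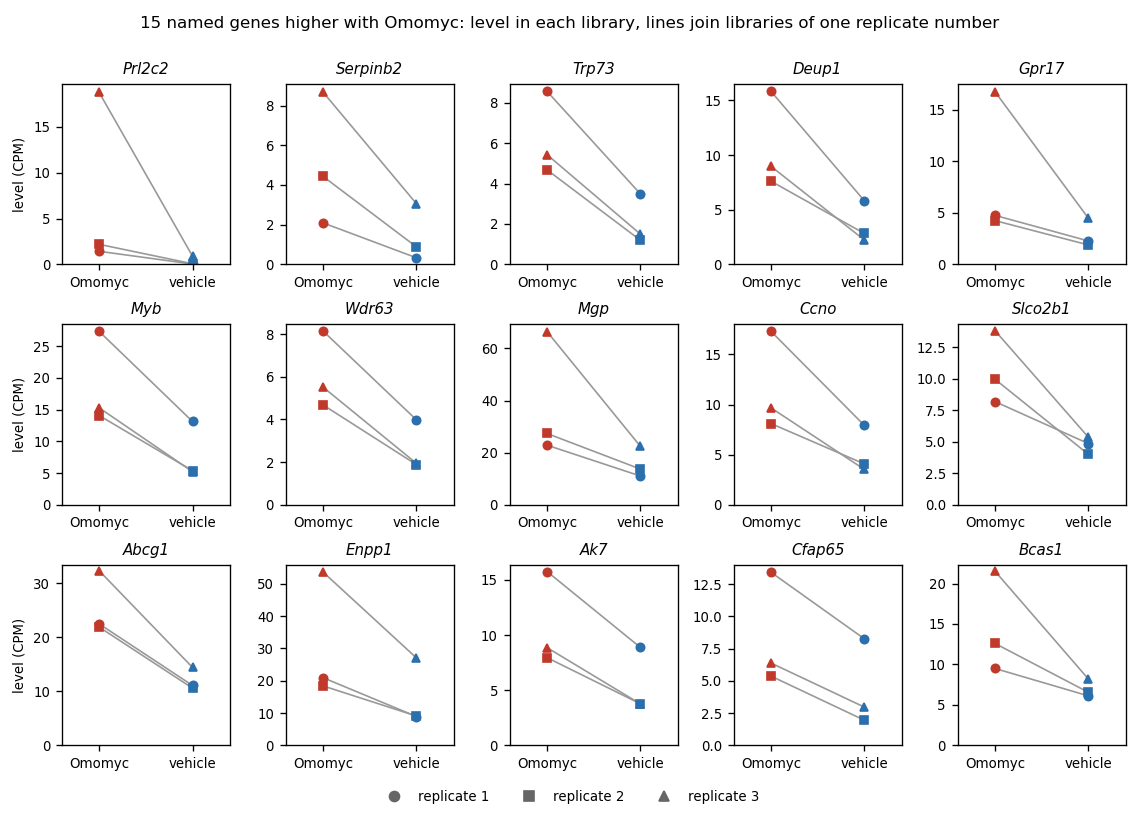
Each panel gives the CPM of a gene in the 3 Omomyc libraries (left) and the 3 vehicle libraries (right), with lines joining the libraries of 1 replicate number. Every line is higher at its Omomyc end, which the choice of these 15 genes required, as for Deup1 at 7.61 to 15.8 CPM against 2.23 to 5.82 CPM.

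The calls of cell division genes moved with pairs 2 and 3. Of 37 genes of the G2 and M phases 2 (5.41%) rose and 0 fell with all pairs (2 and 0 without pair 1, 0 and 0 without pair 2, 32 and 0 without pair 3, 4 and 0 with the correction). With all pairs 30 (81.1%, against 11.5% of all genes) were higher and 0 lower at an unadjusted p under 0.05. Their median was 0.35 with all pairs and 0.52 without pair 3, and in 14 of the 37 the groups did not overlap (6.23% of all genes were higher without overlap). Top2a, a topoisomerase of dividing cells, was at 155, 154 and 114 CPM with Omomyc, against 105, 96.6 and 109 CPM with vehicle. Replicates 1 and 2 were higher with Omomyc by a wide margin and replicate 3 by little. In edgeR the gene did not pass with all pairs (0.43 ± 0.11, adjusted p = 0.0687) but did without pair 3 (0.62, 2.97e-07). DESeq2 with the block called Top2a with all pairs (adjusted p = 0.00293). Mki67, the marker of cycling cells, was at 80.5, 74.3 and 56.04 CPM with Omomyc, against 57.6, 41.4 and 59.6 CPM with vehicle (0.41 ± 0.15). Ccnb1, the mitotic cyclin B1, was at 49.7, 59.3 and 42.2 CPM with Omomyc, against 33.4, 36.8 and 40.5 CPM with vehicle (0.44 ± 0.11). Cdk1, its kinase, was at 55.95, 60.2 and 44.9 CPM with Omomyc, against 38.4, 46.6 and 44.6 CPM with vehicle (0.31 ± 0.10). None of the 3 passed in edgeR with all pairs, and all did without pair 3 (adjusted p = 2.51e-07, 1.76e-06 and 0.00109). DESeq2 with the block and all pairs called Ccnb1 (adjusted p = 0.00832), but not Mki67 or Cdk1. Cenpf, a kinetochore protein gene, was at 36.2, 36.8 and 23.9 CPM with Omomyc, against 20.1, 17.4 and 19.8 CPM with vehicle (0.74 ± 0.14). The spindle motor gene Kif11 was at 49.2, 50.99 and 37.4 CPM with Omomyc, against 35.6, 30.8 and 33.2 CPM with vehicle (0.46 ± 0.10). Both were called with all pairs, but not without pair 2 (0.108 and 0.0562). Of 36 S phase genes 0 were called by edgeR, DESeq2 or limma-voom with all pairs (8, or 22.2%, higher and 0 lower at an unadjusted p under 0.05; 0 and 0 without pair 1 or pair 2, 11 and 0 without pair 3, 1 and 0 with the correction). Cell cycle inhibitor and p53 target genes had 4 (15.4%) lower and 0 higher of 26 (6 and 0 without pair 1, 4 and 0 without pair 2, 4 and 2 without pair 3, 5 and 1 with the correction). Gadd45a, which DNA damage induces, was at 26.5, 26.5 and 25.5 CPM with Omomyc, against 37.95, 44.8 and 36.4 CPM with vehicle (-0.60 ± 0.07). The others were its relative Gadd45g (-0.37 ± 0.07), the kinase gene Plk2 (-0.36 ± 0.08) and Cdkn2b, the inhibitor p15 (-0.44 ± 0.08), while Cdkn1a, the inhibitor p21, did not pass (-0.01 ± 0.06). Plk2 was not called without pair 2 (adjusted p = 0.0665) or pair 3 (0.12).

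**Figure D5:**
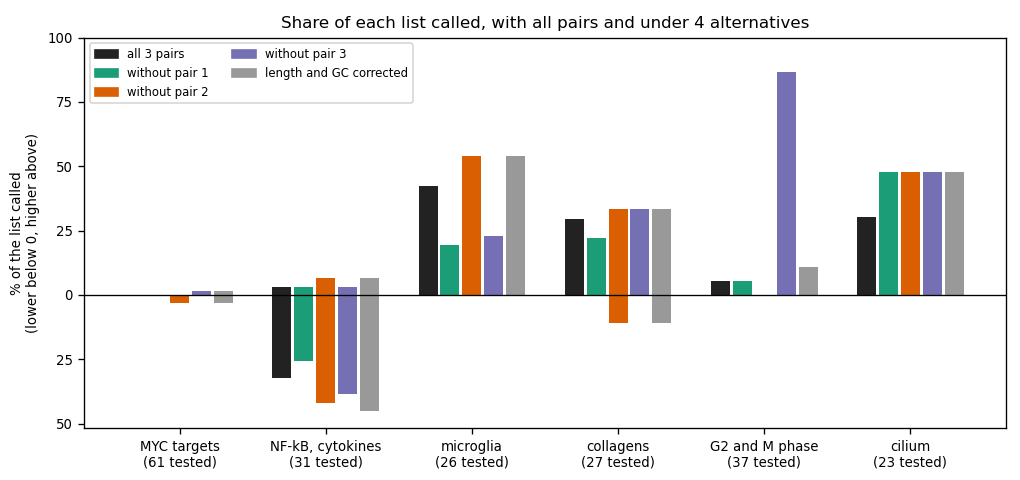
Bars give the percentage of each of 6 lists called higher (above 0) and lower (below 0) with all 3 pairs, without each pair and with the correction for length and GC content. The G2 and M phase list goes to 32 of 37 called without pair 3, against 2 of 37 with all pairs, and the cilium list holds 7 to 11 higher and 0 lower of 23 in each.

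Genes of the oligodendrocyte lineage had few calls, but more were higher at an unadjusted p under 0.05. Gpr17, a receptor of committed precursors, was at 4.75, 4.24 and 16.8 CPM with Omomyc, against 2.27, 1.88 and 4.49 CPM with vehicle (1.47 ± 0.18, adjusted p = 0.00535). Bcas1, a gene of newly myelinating cells, was at 9.502, 12.6 and 21.5 CPM with Omomyc, against 6.12, 6.56 and 8.21 CPM with vehicle (1.01 ± 0.14). Mbp, myelin basic protein, was at 33.8, 53.8 and 60.7 CPM with Omomyc, against 23.9, 36.8 and 37.8 CPM with vehicle (0.58 ± 0.07). The 3 genes were higher in every pair, and replicate 3 of the Omomyc group was the highest library in each. Of 11 precursor genes 1 (9.09%, against 2.23% of all genes) rose and 0 fell (3 and 0 without pair 1, 1 and 1 without pair 2 or pair 3, 2 and 1 with the correction). At an unadjusted p under 0.05, 4 of them (36.4%, against 11.5% of all genes) were higher and 2 (18.2%, against 8.66%) lower. Of 12 myelinating genes 1 (8.33%) rose and 0 fell (2 and 0 without pair 1, 1 and 0 without pair 2 or pair 3, 3 and 0 with the correction). At an unadjusted p under 0.05, 7 of the 12 (58.3%) were higher and 0 lower, and the median of the list was 0.26. Precursor genes summed to 1120, 1113 and 1202 CPM with Omomyc and 1091, 1136 and 1250 CPM with vehicle. Myelinating genes (without Mog, Ermn and Opalin) summed to 364.3, 368.8 and 387.9 CPM with Omomyc and 369.1, 393.9 and 341.4 CPM with vehicle. Their sum was thus lower with Omomyc in pairs 1 and 2 and higher in pair 3. Of 16 neuronal genes 0 rose and 1 fell (0 and 1 without pair 1, 1 and 1 without pair 2 and with the correction, 1 and 2 without pair 3), the tubulin gene Tubb3 (-0.56 ± 0.09).

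The summed marker lists of blood vessels differed, with most of the endothelial sum from 1 gene. Endothelial genes (12 of 15 tested, without Cldn5, Tie1 and Emcn) summed to 414.1, 385.2 and 301.6 CPM with Omomyc and 324.4, 295.5 and 232.2 CPM with vehicle, higher with Omomyc in each pair. Of the 12, 2 (16.7%, against 2.23% of all genes) rose and 0 fell (2 and 0 without pair 1 or pair 2, 2 and 1 without pair 3, 3 and 1 with the correction). The single changes of the list lay between -1.27 and 0.81. Most of the sum was Slco1a4, an organic anion transporter, at 378, 342 and 231 CPM with Omomyc, against 288, 259 and 167 CPM with vehicle (0.42 ± 0.06). The sum therefore mainly follows this gene and says little about the rest of the list. The other gene that rose was Flt1, a receptor of vascular endothelial growth factor, at 4.18, 6.77 and 15.9 CPM with Omomyc, against 2.66, 2.95 and 11.6 CPM with vehicle (0.72 ± 0.15). Mural cell genes (8 of 12, without Kcnj8, Abcc9, Higd1b and Vtn) summed to 4869, 5281 and 4629 CPM with Omomyc and 5406, 6865 and 5871 CPM with vehicle, lower in each pair. Of the 8, 0 rose and 1 (12.5%, against 1.84% of all genes) fell (0 and 1 without pair 1 or pair 2, 0 and 0 without pair 3, 0 and 3 with the correction). Acta2, Tagln and Cnn1 had the highest levels of the list, and Acta2 and Tagln are also in the TGF-beta and YAP target list. Whether these sums reflect vessel cells, and the part of such cells in the other results, was not tested.

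The largest increase was that of Prl2c2, a secreted protein of the prolactin family that proliferating cells make. It was at 1.42, 2.18 and 18.8 CPM with Omomyc, against 0.0329, 0.0628 and 0.891 CPM with vehicle (4.52 ± 0.21, adjusted p = 0.000119), nearly all of it in replicate 3. Prl2c2 has near-identical neighbouring copies, so reads may be split or shared between them and its value is uncertain. Serpinb2, the inhibitor PAI-2 of plasminogen activators, was at 2.09, 4.43 and 8.67 CPM with Omomyc, against 0.329, 0.879 and 3.06 CPM with vehicle (1.93 ± 0.21). Replicate 1 was the lowest of each group in both genes. Mgp, an inhibitor of calcification, was at 22.9, 27.4 and 66.5 CPM with Omomyc, against 11.1, 13.7 and 22.4 CPM with vehicle (1.23 ± 0.11). Enpp1, which makes the calcification inhibitor pyrophosphate, was at 20.9, 18.4 and 53.7 CPM with Omomyc, against 8.91, 9.07 and 27.1 CPM with vehicle (1.07 ± 0.08). Slco2b1, an organic anion transporter, was at 8.201, 9.98 and 13.8 CPM with Omomyc, against 4.87, 4.02 and 5.38 CPM with vehicle (1.15 ± 0.14). These 5 were higher in every pair, and the groups overlapped in Serpinb2 and Enpp1.

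Heat shock genes had 3 (11.1%) lower and 1 (3.7%) higher of 27 (3 and 0 without pair 1, 4 and 1 without pair 2, 5 and 1 without pair 3 and with the correction). The small heat shock protein gene Hspb8 was at 495, 578 and 511 CPM with Omomyc, against 730.3, 973 and 659 CPM with vehicle (-0.56 ± 0.08). Cryab, alpha-B crystallin, was at 161, 200.1 and 169.8 CPM with Omomyc, against 198, 316 and 213 CPM with vehicle (-0.43 ± 0.08). In both, vehicle replicate 2 was the highest library. Of 32 genes of the integrated stress response and amino acid supply 4 (12.5%) fell and 0 rose (4 and 0 without pair 1 or pair 3, 6 and 0 without pair 2, 5 and 0 with the correction). Slc7a11, the cystine and glutamate exchanger, was at 6.26, 8.42 and 14.5 CPM with Omomyc, against 11.3, 13.5 and 27.1 CPM with vehicle (-0.82 ± 0.09). Cebpb, a transcription factor of inflammation and stress, was at 50.8, 52.2 and 70.6 CPM with Omomyc, against 69.1, 79.05 and 85.04 CPM with vehicle (-0.44 ± 0.07). Asns, asparagine synthetase (-0.33 ± 0.07), was not called without pair 1 (adjusted p = 0.0871) or pair 3 (0.0521). Hmox1, haem oxygenase, was at 131, 174 and 224 CPM with Omomyc, against 176, 234 and 285 CPM with vehicle (-0.40 ± 0.05), and with Slc7a11 it made 2 (6.9%) lower and 0 higher of 29 genes of oxidative stress (2 and 0 without pair 1, 5 and 2 without pair 2, 3 and 0 without pair 3, 4 and 2 with the correction). Of 21 chaperone and other genes of endoplasmic reticulum stress 0 were called by edgeR, DESeq2 or limma-voom (0 and 0 without pair 1 or pair 3 and with the correction, 1 and 0 without pair 2), and 2 were higher and 1 lower at an unadjusted p under 0.05. Of 38 interferon response genes 2 (5.26%, against 2.23% of all genes) rose and 0 fell (1 and 0 without pair 1, 3 and 0 without pair 2 and with the correction, 0 and 0 without pair 3), the antiviral genes Oas3 (0.45 ± 0.09) and Cmpk2 (0.31 ± 0.07). Of 27 genes linked to amyotrophic lateral sclerosis 0 were called by edgeR, DESeq2 or limma-voom (3 higher and 1 lower at an unadjusted p under 0.05; 0 and 0 without pair 1 or pair 3, 0 and 1 without pair 2, 1 and 1 with the correction), and Tardbp, which encodes TDP-43, was at 179, 174 and 174 CPM with Omomyc, against 186, 154 and 177 CPM with vehicle (0.03 ± 0.06, adjusted p = 0.813).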

How the data were processed

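RNA was poly(A) RNA of the cultured cells, made into 6 libraries with a Watchmaker mRNA kit and Twist UMI adapters and read from both ends, per the labels' protocols. The authors deposited unnormalized counts per gene for 17572 genes, and the labels do not give the rule that kept them. DESeq2, featureCounts 2.0.1 for counting, UMI-tools 1.0.1, the aligner STAR 2.7.7a and fastp are named in the submitters' processing notes, as are genome builds GRCm39, GRCm38.p6 and mm10 without a role, so that the build of the deposited counts is not known. Whether reads were counted by UMI, and with strand, is likewise not stated. Positions given here are those of GENCODE vM21 on GRCm38, which matched 17559 of the gene IDs without their version and 17004 with it.

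Counts were tested with edgeR 4.0.16 in R 4.3.3 (TMM scaling, genes kept by filterByExpr with a minimum count of 10, robust quasi-likelihood fit, Benjamini-Hochberg adjusted p under 0.05 over all 16119 genes tested), without and with the replicate number as a block. The block was taken from the check given above, in which libraries of 1 number deviated together; the coefficient of variation between replicates was 16.6% without it and 6.81% with it. limma 3.58.1 and DESeq2 1.42.0, other scalings and filters, a test against 1.5-fold, leaving out libraries, and a correction for transcript length and GC content were alternatives. The last, and the alternatives of the fit with the block, were chosen after the data were seen.

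The members, the 56 gene lists and the design were chosen with earlier results of these data known. Named genes were up to 15 in each direction by fold change, up to 6 of smallest p and the 3 of highest level in each list, and a few set by hand. Those by fold change were called genes of at least 5 CPM whose 3 pairs all went that way, without clone or predicted names. This rule was written for the fit without the block, where it asked for no overlap between groups in place of agreement of the pairs. It was carried over to the fit with the block after values were seen. A level is TMM-scaled CPM computed here from the deposited counts, and a level of a gene was not compared with that of another. The scripts were tested on simulated data, where the fit with the block made more false calls (35 of 234 calls) than its threshold states. Depth limits the scarcest genes, and the totals of the libraries differed little. Some list members are not reported by name here.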

Additional observations from a re-analysis of the deposited data

How the results depend on the processing

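Without a block the counts of genes higher and lower were 0 and 3. They were 18 and 79 in DESeq2, 0 and 2 in limma-voom, 0 and 0 with genes kept at 1 CPM in 3 libraries or with the test against 1.5-fold, and 0 and 0 to 1 when each library was left out in turn, the call kept without Omomyc replicate 3 being 1 of the 3. RLE size factors and no filter gave 0 and 3, and the length and GC correction 0 and 4. With the replicate block the counts were 360 and 296, and the 3 genes called without it were among them. Against 1.5-fold the block left 10 and 18. The length and GC correction gave 653 and 576 (348 and 294 of the calls shared), and with the correction and without pair 2 there were 462 and 453 (250 of the lower calls shared). Leaving out pairs 1, 2 and 3 gave 319, 565 and 712 higher and 247, 520 and 418 lower. DESeq2, limma-voom, RLE size factors and both other filters with the block gave 342 to 422 higher and 289 to 307 lower. The cause of these differences was not tested, except that fewer libraries or a stricter threshold enter by construction. Of 142 named genes called with the block, 101 kept the call in every alternative of that fit but the test against 1.5-fold. Over the 169 named genes and the alternatives with the block, 105 of 1688 results changed side of the threshold. Of results called in the main fit with the block or in the alternative, 0 changed direction. Changes of direction in results called in neither were not counted. Genes near 1 CPM (Cxcl1, Cxcl2, Il1b, Artn, Foxn4, Cdc20b) rest on few counts.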
